A study of Mus musculus with 2 samples.

Results

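The 10 genes described here form a core of the heat-producing programme of brown and beige fat: Ucp1, Ppargc1a, Ppargc1b, Prdm16, Dio2, Cidea, Elovl3, Cox7a1, Cox8b and Kcnk3. They were chosen by name, with earlier results of these data known, and found through the RefSeq transcript assigned to each array probe. All 10 were on the array, out of 20884 genes that could be named this way. Ppargc1a was read by 2 probes and the other genes by 1 probe each, and each of these 11 probes was printed as a single spot.

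Both cell populations came from epididymal fat, a white depot, of male C57/BL mice; the labels give no age, no genetic modification and no number of animals or cultures. After collagenase digestion and a spin of 1 s at 9 g, the lower phase gave the stromal vascular cells. The floating layer was spun again for 3 min at 226 g, and the cells that sedimented from it are called small proliferative adipocytes. Each population was grown to 90% confluency, kept for 3 days with insulin, dexamethasone and IBMX, a phosphodiesterase inhibitor that raises cyclic AMP, and then for 2 days without them. The cultures are called SPAD and SVCD after differentiation of the small proliferative adipocytes and of the stromal vascular cells, and each was measured on 1 single-colour Agilent array. The labels are not uniform: by title and source name the cells were differentiated, whereas the short descriptions read SPA and SVC, the names used before differentiation. Titles, source names and the culture protocol were followed here. Mature fat cells and brown fat were not analysed here, so the values compare these 2 samples only, with no replicate and no test.

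Brown and beige adipocytes burn fuel as heat. Noradrenaline acts through beta adrenergic receptors and cyclic AMP to release fatty acids and to induce Ucp1, whose protein lets protons back across the inner mitochondrial membrane without making ATP. The coactivators encoded by Ppargc1a and Ppargc1b raise the number of mitochondria, and PRDM16 directs cells towards the brown fate. White fat such as the epididymal depot normally holds little of this programme, and beige cells appear in white depots on cold or adrenergic stimulation.

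Signals are processed intensities, with the background subtracted, and "detected" means that the scanner software called the spot well above its local background. Of 39425 probes, 64.5% were detected for SPAD and 65.6% for SVCD, and no non-control spot was saturated. The lowest detected signal was 10.8 for SPAD and 8.60 for SVCD. Among 153 negative control spots per array the median signal was 2.67 (SPAD) and 2.11 (SVCD) and the highest was 14.6 and 60.5. Of these controls, 1 in SPAD and 4 in SVCD were themselves called well above background. Differences are log2 SPAD minus SVCD after scaling each array to its 75th percentile. Where only 1 array detected a gene, its value there was compared with the dim spot or with the weakest detected spot of the other array, whichever was higher, which gives a lower bound ("at least"). The error given with a measured difference is the SD between repeat spots of probes of similar brightness, and it covers spot error only.

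For 6 of the 10 genes a RefSeq promoter (assembly GRCm38.p6) was at hand. Those of Ucp1, Ppargc1a and Cox8b are printed because these genes were detected on the SPAD array alone, and that of Dio2 because it was detected on both arrays and lower in SPAD. Each shows the 250 bases before the start, 5′ to 3′ on the gene's strand. Capitals mark TGACG or its complement CGTCA (the core of the cyclic AMP response element), AGGTCA or TGACCT (a half-site of nuclear receptors such as PPARγ) and TATAAA or TTTATA (the TATA box).
Ucp1, chr8:83290098-83290347, plus strand: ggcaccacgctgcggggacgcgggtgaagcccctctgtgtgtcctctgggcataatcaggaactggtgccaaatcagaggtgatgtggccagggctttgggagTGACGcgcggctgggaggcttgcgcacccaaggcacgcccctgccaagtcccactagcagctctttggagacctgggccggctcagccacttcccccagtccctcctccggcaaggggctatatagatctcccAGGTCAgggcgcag
Ppargc1a, chr5:51567726-51567975, minus strand: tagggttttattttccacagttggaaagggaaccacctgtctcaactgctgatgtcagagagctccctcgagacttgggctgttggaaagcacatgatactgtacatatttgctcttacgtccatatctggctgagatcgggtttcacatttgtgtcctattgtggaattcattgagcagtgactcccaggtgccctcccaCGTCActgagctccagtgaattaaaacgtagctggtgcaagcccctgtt
Cox8b, chr7:140900447-140900696, minus strand: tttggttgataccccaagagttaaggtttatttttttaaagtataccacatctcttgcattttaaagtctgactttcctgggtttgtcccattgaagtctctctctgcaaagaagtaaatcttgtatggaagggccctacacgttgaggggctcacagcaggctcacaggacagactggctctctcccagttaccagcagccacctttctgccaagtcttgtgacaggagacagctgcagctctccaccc
Dio2, chr12:90739039-90739288, minus strand: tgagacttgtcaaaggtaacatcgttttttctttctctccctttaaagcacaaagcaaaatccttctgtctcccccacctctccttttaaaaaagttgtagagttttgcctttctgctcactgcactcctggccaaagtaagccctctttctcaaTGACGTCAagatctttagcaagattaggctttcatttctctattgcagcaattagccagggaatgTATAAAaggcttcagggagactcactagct

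The Ucp1 window held the core TGACG at 147 to 143 bases before the start and AGGTCA at 14 to 9 bases before it. In the Ppargc1a window the core lay on the other strand, at 49 to 45 bases. Dio2 carried the full palindrome TGACGTCA at 95 to 88 bases, which contains the core on both strands, and TATAAA at 30 to 25 bases, while Cox8b held none of these letters. Of 32851 windows of the same length, 17.8% held the core on either strand, 1.55% the full palindrome, 14.0% the half-site and 12.4% the TATA letters. The windows of Prdm16 and Cox7a1, not printed, held none of these letters. A match is a string of letters, not a shown binding site. The gene with the full palindrome was lower in SPAD and the genes with the core alone were higher. Any link between these letters and the direction was not tested.

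Of the 10 thermogenic genes, 9 were detected on at least 1 array, 7 in SPAD and 5 in SVCD. Ucp1, Kcnk3, Ppargc1a, Cox8b and Cidea were higher in SPAD by 2-fold or more, and Ppargc1b and Dio2 lower by 2-fold or more. Cox7a1 and Prdm16 lay within 2-fold, and Elovl3 was not detected. Over all 15632 named genes detected on at least 1 array, 16.3% were higher in SPAD by 2-fold or more and 14.1% lower by as much, counted in the same way, against 5 and 2 of the 9 members. The median difference of these 9 was 1.41, with bounds taken at their value, beside 0.06 over all 15632. A gene kept because 1 array detected it is higher on that array by construction, so these counts and medians are descriptions only. In bulk RNA such as this, fewer cells that make a transcript and less of it per cell cannot be told apart.

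Most of these signals were dim. In 7 of the 9 detected genes the signal was below 100 on both arrays, and only Cox7a1 reached an array's 75th percentile, which was 622 for SPAD and 678 for SVCD. Detection on the SPAD array alone applied to Ucp1, Ppargc1a, Cox8b and Cidea, and to 4.34% of all genes detected on at least 1 array; their 4 bounds were all above 2-fold, as in 3.28% of all. Detection on the SVCD array alone applied to Ppargc1b and Prdm16, and to 5.56% of all. The measured difference was more than 2 times the spot error in 8 of the 9 detected genes, all but Prdm16. In genes detected on 1 array, 1 side of that difference was not above background, so this count is a description only. Spot error was also smaller at the floor: on the SVCD array it was 0.39 below a signal of 4 and 0.66 from 4 to 8.

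The spots can also be read before any correction, as the median pixel of the spot beside that of its surroundings, which lay between 26.0 and 32.5 for all member spots. For Ucp1 the spot was at 188 in SPAD over a surround of 30.0, and at 32.0 over 27.0 in SVCD. For Kcnk3 it was at 111 over 26.0 in SPAD and at 43.0 over 26.5 in SVCD, and for Ppargc1a, first probe, at 86.0 over 32.5 and at 32.0 over 29.0. In each of these the gap between spot and surround was wider in SPAD. The Cox8b spot was at 61.0 over 26.0 in SPAD and, in SVCD, at 25.5 below a surround of 27.5. The Dio2 spot stood above its surround in both cultures, at 50 over 28.0 in SPAD and at 70.0 over 28.0 in SVCD. Ppargc1b was at 38 over 29.0 in SPAD and at 61.5 over 27.0 in SVCD, so here the SVCD spot was the bright one.

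**Figure D1:**
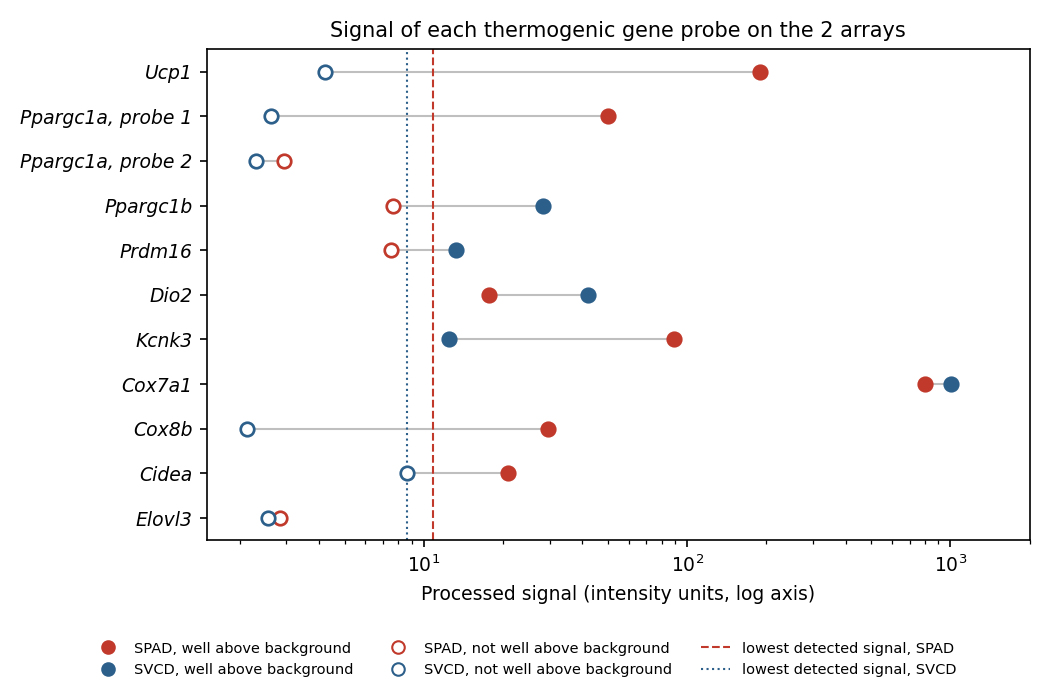
Processed signal (intensity units, log axis) of each of the 11 probes in SPAD (red) and SVCD (blue), 1 spot per array and no replicate. Filled circles were well above background and open circles were not, and the vertical lines give the lowest detected signal of each array. Ucp1 shows the widest gap, 189.7 against 4.21, Cox7a1 is the only gene bright on both arrays, and Elovl3 and the second Ppargc1a probe lie below both lines.

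Ucp1, the uncoupling protein itself, had a signal of 189.7 in SPAD and 4.21 in SVCD. The software's own error for these spots was 19.2 and 2.45, so the SVCD spot lay less than 2 errors above 0. Ucp1 was therefore well above background in SPAD alone, at least 24.1-fold higher there, with a measured log2 difference of 5.62 ± 0.67. Its SPAD signal was 13.0 times that of the brightest negative control spot, whereas 6 of the 153 negative control spots in SVCD were at least as bright as Ucp1.

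Cidea, a lipid droplet protein of the CIDE family that is abundant in brown fat, gave 20.9 in SPAD and 8.61 in SVCD. The SVCD spot had a signal just over the lowest detected one but was not itself called well above background. In SVCD 4 negative control spots were at least as bright. The bound thus equalled the measured difference, 2.65-fold higher in SPAD (log2 1.41 ± 0.67), and spot error could make the true difference smaller. With quantile normalization this difference was 1.14. It was within 2-fold when the arrays were scaled to their spike-in controls (0.57) and with the normexp background correction described below (0.43). Of the members called 2-fold higher, Cidea lay nearest to the limit.

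Among the coactivators and regulators, Ppargc1a and Ppargc1b differed in opposite directions. Ppargc1a, the coactivator that cold and cyclic AMP induce, had a signal of 50.2 in SPAD and 2.62 in SVCD on its first probe, at least 6.37-fold higher in SPAD (measured log2 4.38 ± 0.42). Its second probe was at 2.94 and 2.30, below detection on both arrays, so the difference rests on a single spot per array. Ppargc1b, its relative with overlapping mitochondrial targets, was at 7.63 in SPAD and 28.4 in SVCD. It was detected in SVCD alone and at least 2.41-fold lower in SPAD (measured log2 -1.77 ± 0.72).

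Prdm16, the transcriptional regulator of brown fate, was close to background in both cultures, at 7.53 in SPAD and 13.3 in SVCD. It was detected in SVCD alone, with a bound of only 1.13-fold lower in SPAD, and its measured difference of -0.69 was smaller than its spot error of 0.84. In SVCD 3 negative control spots were at least as bright. No difference in Prdm16 was thus detectable at this signal.

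Dio2, the deiodinase that makes active thyroid hormone inside the cell, was detected on both arrays, at 17.7 in SPAD and 41.9 in SVCD. It was 2.17-fold lower in SPAD (log2 -1.12 ± 0.42), which is 2.65 spot errors from 0. Kcnk3, a potassium leak channel that sets the membrane potential of brown adipocytes, went the other way. Its signal was 89.0 in SPAD and 12.4 in SVCD, 7.81-fold higher in SPAD (2.97 ± 0.55). The Kcnk3 spot in SVCD was dim, with 3 negative control spots at least as bright, and the Dio2 spot in SVCD had 1 such spot.

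Cox7a1 and Cox8b encode forms of cytochrome c oxidase subunits that are found in heart, skeletal muscle and brown fat, where they replace the common forms. Cox7a1 was bright on both arrays, at 799.7 in SPAD and 1001 in SVCD, a log2 difference of -0.20 ± 0.09, or 1.15-fold lower in SPAD. Cox8b was at 29.6 in SPAD and 2.12 in SVCD, detected in SPAD alone and at least 3.76-fold higher there (measured 3.93 ± 0.55). In SVCD 72 of the 153 negative control spots were at least as bright as Cox8b. The software's own error for that spot was also 2.12, and its median pixel lay below its surround. The measured size therefore rests on a spot at the floor, and only the bound can be read.

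Elovl3, the elongase of very long chain fatty acids that cold induces in brown fat, was below detection in both cultures, at 2.84 in SPAD and 2.57 in SVCD. No fold is given. Its measured log2 difference was 0.27. Spots at the floor of both arrays carry a small positive difference: the 5252 named genes detected on neither array (25.1% of all) had a median of 0.45, with quartiles of 0.38 and 0.48. The second Ppargc1a probe, at 0.48, lay in the same range.

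**Figure D2:**
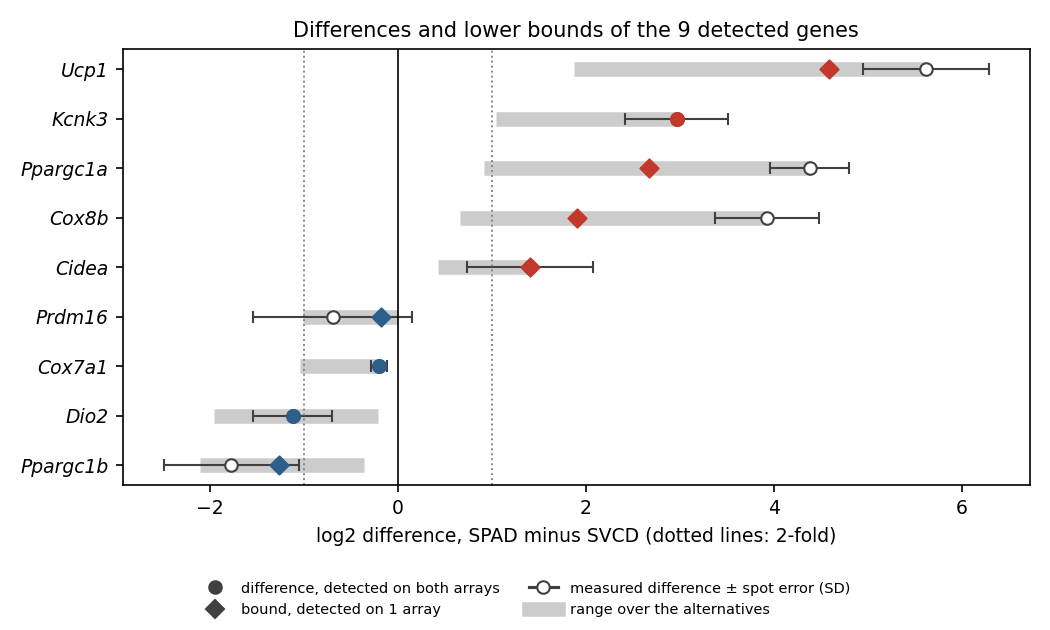
Log2 difference, SPAD minus SVCD, of the 9 detected genes. Filled symbols give the reported value, circles for genes detected on both arrays and diamonds for lower bounds; open circles give the measured difference with the SD between repeat spots, and grey bars the range over the alternative processing settings, which for Ucp1 runs from 1.87 to 5.62 and for Kcnk3 from 1.04 to 2.97. No gene's range crosses 0, although that of Prdm16 touches it. Where bounds were used, a bound on the wrong side of 0 was set to 0. Genes detected on 1 array could therefore not cross 0 in those settings, and the 0 of Prdm16 arose in this way.

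In the authors' deposited table, which carries no detection calls, the log2 differences were 5.62 for Ucp1, 4.38 for Ppargc1a on its first probe, 3.93 for Cox8b, 2.96 for Kcnk3, -1.12 for Dio2 and -1.77 for Ppargc1b. They come from the same spots as the measured differences above and are no separate evidence. The calls depend on how faint spots are treated. With normexp background correction and an offset of 50, which draws faint values together, 2 members were still higher by 2-fold or more. These were Ucp1 at 1.87 and Kcnk3 at 1.04, and none was 2-fold lower. Over all 15632 detected genes, 1475 were then higher by 2-fold or more and 1427 lower. With the arrays scaled to their spike-in controls, which lowered the difference of every gene detected on both arrays by 0.84, Ucp1 was at 3.75, Kcnk3 at 2.13, Ppargc1a at 1.83 and Cox8b at 1.07. Ppargc1b, Dio2, Cox7a1 and Prdm16 were then 2-fold lower. So were 5990 of all 15632 detected genes, while 1004 were higher by as much. The counts with spike-in scaling given below for gene lists are to be read beside these. The median over all genes moved from 0.06 to -0.76 and that of the members from 1.41 to 0.57. The distance between these medians was 1.35 in the main values and 1.33 with spike-in scaling. A near-constant shift leaves this distance almost unchanged by construction, so the likeness says nothing of stability. With normexp correction the distance was 0.36.

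Closely related genes often differed less than the members or in the other direction, which was not tested. Ucp2 and Ucp3, which encode carriers related to Ucp1 but are not held to be heat producers, were 3.49-fold and 3.37-fold lower in SPAD (log2 -1.80 ± 0.08 and -1.75 ± 0.08), where Ucp1 was higher. A second Ucp3 probe was below detection on both arrays, at 6.16 in SPAD and 2.07 in SVCD, so the Ucp3 value rests on 1 probe. That probe was at 1548 in SPAD and 5691 in SVCD, close to Ucp2 at 1634 and 6216. Whether it reads Ucp3 alone was not tested. Pprc1, the third gene of the Ppargc1a family, was 2.10-fold lower (-1.07 ± 0.19), as Ppargc1b was. In the cytochrome c oxidase families the common forms were nearly level: Cox7a2 differed by -0.14 ± 0.08 and Cox8a by -0.18 ± 0.08, while Cox7a2l, which helps to assemble respiratory supercomplexes, was at 0.39 ± 0.08.

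The other families were mixed. Cidec, the lipid droplet protein of white fat, was at 3.59 ± 0.11 on its brighter probe but at 0.00 on the other, and Cideb was at -0.31 ± 0.13. The deiodinase genes Dio1 (0.02 ± 0.50) and Dio3 (-0.25 ± 0.50) differed by less than their spot error. Of the elongase genes, Elovl5 was at -0.69, Elovl7 at -0.53, Elovl1 at -0.11, Elovl6 at 0.19 and Elovl4 at 0.57, and Elovl2 was not detected on either array. Among the potassium channel paralogs, Kcnk6 was 10.3-fold lower in SPAD and Kcnk13 3.95-fold lower, opposite to Kcnk3. Kcnk2 was detected in SPAD alone, as a higher gene (bound 0.75, measured 2.90 ± 0.58), Kcnk9 was at 0.25 ± 0.50, and Kcnk5 was detected in SVCD alone with a bound close to 0 (-0.06). Mecom, the paralog of Prdm16, was detected in SPAD alone on the probe read, at least 2.60-fold higher, and on neither array on its other probe. Of 21 paralogs detected, 2 were 2-fold or more higher in SPAD and 5 as much lower, and the median was -0.14, or 1 higher and 10 lower with spike-in scaling (median -0.98). In paralogs detected on both arrays, that scaling turned the positive values below 0.84 negative, among them those of Cox7a2l and Elovl4.

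**Figure D3:**
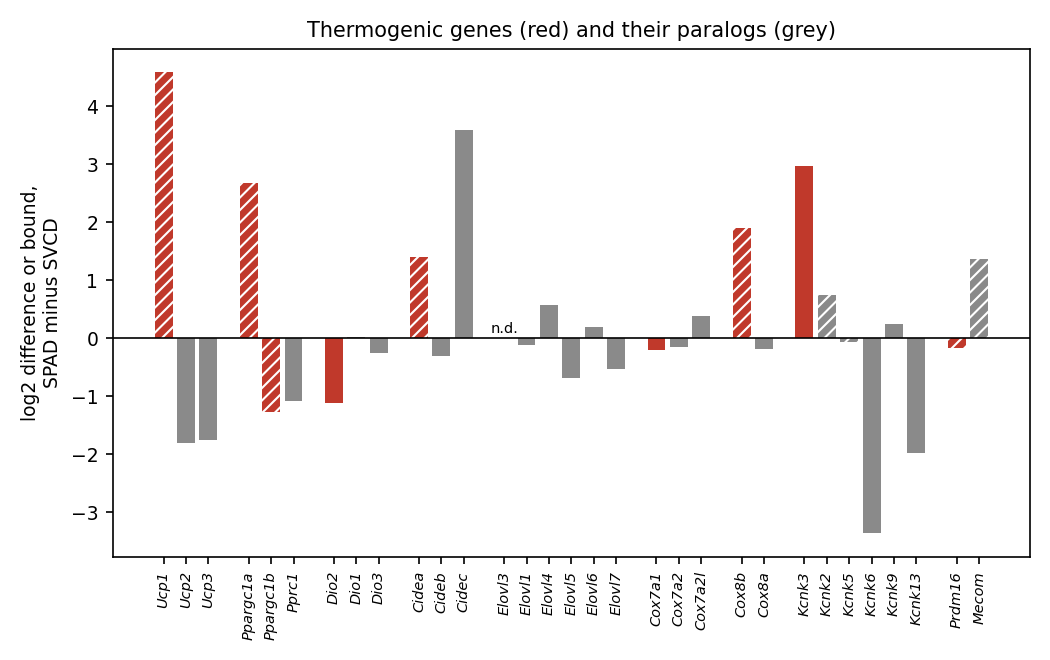
Log2 difference or bound, SPAD minus SVCD, of the thermogenic genes (red) and of their paralogs that were detected (grey), by family; hatched bars are lower bounds, n.d. marks Elovl3, detected on neither array, and there are no replicates. Ucp1 stands above 0 (bound 4.59) with Ucp2 and Ucp3 below it (-1.80 and -1.75), and the bars of Cox7a1, Cox7a2 and Cox8a are close to 0. The Ucp3 bar is from its brighter probe, as the other was below detection on both arrays.

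Signal chains that act upstream of the members were mostly detected on both arrays. Of 20 genes of beta adrenergic and cyclic AMP signalling, each of them detected on both arrays, 6 were higher in SPAD by 2-fold or more and 1 lower, and the median was 0.38. With spike-in scaling 2 were higher and 6 lower, with a median of -0.46. That scaling moved the median over all genes to -0.76, with 1004 higher and 5990 lower, so the list moved with all genes. The adenylyl cyclase genes Adcy6 and Adcy4 were 5.88-fold and 3.22-fold higher. Crem, a cyclic AMP responsive transcription factor, was 3.70-fold higher on its brightest probe (1.89) and at 0.83 on another, and the kinase gene Sik2 was at 1.52 and 0.60. Prkacb, a catalytic subunit of protein kinase A, was the lower gene (2.59-fold). For Adrb1 and Adrb3, singled out after their values were seen, the probes disagreed. Adrb1 was at 0.56 on 1 probe and detected in SVCD alone on the other. Adrb3, the receptor most typical of adipocytes, was at -0.29 ± 0.50 on the probe detected on both arrays but detected in SPAD alone on its other probe, at 141 against 3.63.

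Regulators known to promote the brown or beige state went both ways. Of 27 detected, 6 were higher in SPAD by 2-fold or more and 3 lower (median 0.16). With spike-in scaling 3 were higher and 10 lower (median -0.68). Ebf2, which marks brown and beige precursors, was 4.26-fold higher (2.09 ± 0.18), Ppard 4.79-fold and Pparg, the central adipogenic receptor, 3.93-fold. Plac8 was 12.7-fold lower (-3.66), and Irf4, a partner of the Ppargc1a protein, was detected in SVCD alone and at least 2.36-fold lower. Esrrg was not detected on either array.

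Of 14 detected genes described as holding the programme back, 3 were higher by 2-fold or more and 4 lower (median -0.42), or 1 higher and 9 lower with spike-in scaling (median -1.26). The corepressor gene Nrip1 (3.44-fold), Zfp521 (3.62-fold) and Foxo1 (2.49-fold) were higher in SPAD, and Rbl1, a relative of the retinoblastoma gene, was 3.49-fold lower. Secreted signals and receptors were likewise split, with 5 of 16 higher and 4 lower (median 0.26), or 3 higher and 6 lower with spike-in scaling (median -0.57). Gdf15, a stress-induced hormone, was 7.60-fold higher, while the chemokine gene Cxcl14 was 9.66-fold lower. Metrnl was 6.04-fold and Nrg4 3.63-fold lower, and Vegfa was 4.19-fold higher. Bmp7, which promotes brown adipogenesis, was detected in SPAD alone at a signal of 28.6, at least 3.63-fold higher.

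Of 36 other marker genes of brown or beige adipocytes on the array 27 were detected, 5 of them higher in SPAD by 2-fold or more and 8 lower, and the median was -0.01. Spike-in scaling left 1 higher and 13 lower (median -0.85), and normexp correction 1 higher and 7 lower (median 0.03). The largest differences were all lower in SPAD: Fabp3, a fatty acid carrier, by 37.9-fold (-5.25 ± 0.17), Acot11, a thioesterase, by 22.1-fold (-4.47 ± 0.39), Gatm, which makes the creatine precursor, by 16.8-fold (-4.07 ± 0.39) and the creatine kinase gene Ckb by 7.12-fold (-2.83 ± 0.09). Of the higher genes, Oplah was at 1.98, Cited1 at 1.75, S100b at 1.67 and Cpt1b, the muscle and brown fat form of the carnitine transferase, at 1.62, and Otop1 was detected in SPAD alone. The markers Lhx8, Tbx1, Shox2 and Fgf21 were not detected on either array, and Tmem26 was detected in SVCD alone at a signal of 13.8.

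Markers of several cell types also differed between the cultures. Of 18 mature adipocyte markers 17 were found on both arrays; 14 of them were higher in SPAD by 2-fold or more and 1, Lpl, lower, and the median was 2.97. All 12 endothelial markers were detected and 11 passed 2-fold upwards (median 2.87). Downwards, 7 of 11 macrophage markers and 6 of 9 detected mesothelial markers passed it (medians -2.72 and -2.72, bounds included). Over genes detected on both arrays, 5 of 9 macrophage and 4 of 6 mesothelial markers were 2-fold lower (medians -1.32 and -3.52). With normexp correction the mesothelial median was -0.83, with 4 genes lower by 2-fold or more, and the adipocyte median was 1.95. Their part in the members' differences was not tested. The summed signal of the mature adipocyte list, divided by the array's 75th percentile, was 292 in SPAD and 132 in SVCD, that of the endothelial list 63.0 and 12.9, that of the macrophage list 277 and 463, and that of the mesothelial list 2.05 and 17.5.

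Cox7a1, Cox8b, Ppargc1a and Kcnk3 are also expressed in muscle or heart, so muscle markers were read beside them. Of 20 skeletal and heart muscle markers 12 were detected, 5 of them in SPAD alone; 5 were higher in SPAD by 2-fold or more and 4 lower (median 0.51, or -0.31 with spike-in scaling). Over the 7 genes detected on both arrays, 1 was higher and 4 lower, and the median was -2.24. The fast-muscle troponin gene Tnnc2 was 6.85-fold higher and the titin gene Ttn at least 7.17-fold higher in SPAD, whereas Acta1 was 14.3-fold, Tnni2 12.9-fold and Des 11.9-fold lower. The summed signal of this list was 1.19 in SPAD and 6.77 in SVCD, in units of the 75th percentile. The regulators Myod1 and Myog, the creatine kinase gene Ckm and the fast myosin genes Myh1, Myh2 and Myh4 were not detected on either array. Smooth muscle and pericyte markers, with 3 of 13 higher and 5 lower, had a median of -0.84 and a summed signal of 86.7 in SPAD and 368 in SVCD; the median over the 12 genes detected on both arrays was -0.29. The genes that differed most were contractile and lower in SPAD, Cnn1 by 40.7-fold, Acta2 by 13.7-fold, Tagln by 12.0-fold and Actg2 by 11.9-fold. The pericyte markers, chosen after their values were seen, were split: Rgs5 was 7.19-fold and Notch3 4.31-fold higher, and Cspg4 2.66-fold lower.

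**Figure D4:**
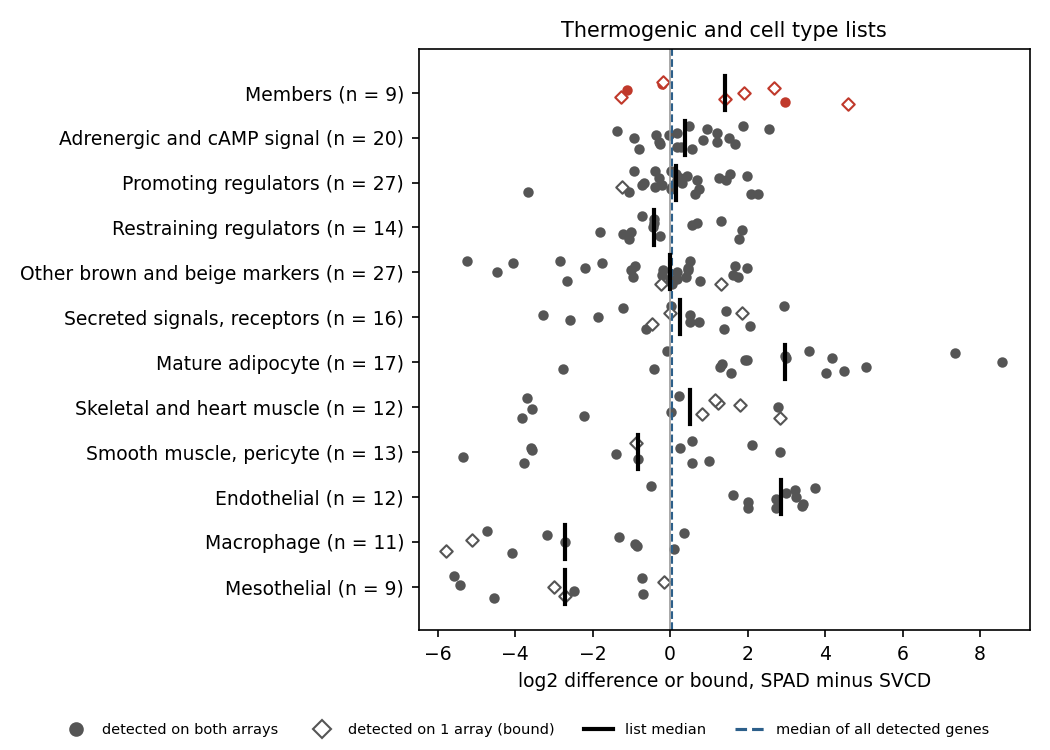
Log2 difference or bound, SPAD minus SVCD, of each detected gene in 12 lists, with the list median as a black bar; filled circles were detected on both arrays, open diamonds are bounds, and the dashed line is the median of all 15632 detected genes (0.06). The median of the 9 detected members is 1.41, the medians of the mature adipocyte and endothelial lists are 2.97 and 2.87, and that of the other brown and beige markers is -0.01.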

How the data were processed

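The members and gene lists were chosen with earlier results of these data known. Agilent Feature Extraction 10.7.3.1 was used for the scans, per the submitters' processing notes. The deposited files hold a linear, background-subtracted intensity for each of 44397 spots per array, per the file headers, and slide and scan were shared. Control spots (1377) and outlier spots (73 on the SPAD array, 85 on the SVCD array) were left out here, repeat spots averaged as log2 values, and each array's 75th percentile subtracted. Probes were named through the RefSeq table (27506 of 39425, 69.8%). A gene was read from the probe detected on more arrays and, among these, the brightest. The error came from 399 probes printed 10 times on each array, in 8 signal ranges. With 1 array per group, which limits the precision, no test was run and a gene was called at 2-fold.

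The authors also deposited a table of log2 values whose columns were opposite in sign, within 0.0001, for all 39485 probes; for probes printed once, its differences equalled those of the scanner files plus a constant 0.12, within 0.02. The authors' scaling is not stated in the labels. Medians of its columns were 0.16 (SPAD) and -0.16 (SVCD), so only differences can be read from it. The genes named from each list are those with the largest differences, up to 4, besides all members and the paralogs; other genes named were chosen after their values were seen. The calling was tested on simulated data, in which only brighter probes detected on both arrays were changed. That test does not cover calls on dim genes such as most members. Alternatives were other scalings, background correction, filters, probe choice and size limits. The files lack the mean spot signal, so normexp (limma 3.58.1, R 4.3.3) was run on the median pixel signal, a choice made after seeing the data. Python 3.11.15 was used for the rest.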

Additional observations from a re-analysis of the deposited data

How the results depend on the processing

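No paired analysis was possible because each group has 1 array. With quantile normalization, the 75th percentile over probes detected on both arrays, no scaling, the authors' table, a mean over probes, or outlier spots kept, the members 2-fold higher and lower stayed at 5 and 2. Spike-in scaling gave 4 lower members and a median of 0.57, with 5990 of all detected genes lower as well. Normexp gave 2 higher, 0 lower and a median of 0.43. The limit of 3-fold left 0 lower and 4 higher. Over the 3 genes detected on both arrays there was 1 higher and 1 lower, and the median turned to -0.20. This filter leaves out the 4 members detected in SPAD alone, which are higher there by construction, and the 2 detected in SVCD alone. Without a filter on dim probes the median was 0.84. The median over all named genes turned to -0.052 without scaling and to -0.76 with spike-in scaling. For members detected on 1 array the size beyond the bound is unknown. Signal over background limits what can be said of Prdm16, Elovl3 and Cidea, and also of Ppargc1a, Cox8b, Ppargc1b, Dio2 and Kcnk3. With normexp Ppargc1a was at 0.92, Cox8b at 0.66, Ppargc1b at -0.36 and Dio2 at -0.22, all within 2-fold.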
